A study of Mus musculus with 12 samples.

Results

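Cd28, Ctla4 and Icos lie next to each other on mouse chromosome 1 and encode a family of T cell surface receptors. The stretch that holds them, chr1:60750000-61100000 on NCBIM37, was examined for sites of open chromatin in regulatory T cells (Treg) and conventional CD4+ T cells (Tconv). All ATAC-seq peaks of the 12 libraries in this 350 kb window were merged where they overlapped or touched. This gave 50 elements among 40457 merged regions of the genome, numbered 1 to 50 along the chromosome from the Cd28 side. Of these, 42 elements had a peak in at least 2 libraries, the minimum used for the 32787 regions to which they were compared. The other 8 elements came from a single library each, 6 from a Treg and 2 from a Tconv library. The window and its elements were taken by position, not by any measured value.

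CD28 is the receptor that gives a T cell the second, costimulatory signal when it meets CD80 or CD86 on an antigen-presenting cell. CTLA-4 binds the same ligands more tightly, strips them from the presenting cell and is made constitutively by Treg, where it serves suppression. ICOS binds a separate ligand and is induced on activated T cells, and effector Treg and follicular helper T cells are known for high levels of it. In a RefSeq gene table of GRCm38.p6, used for gene order and not for positions, Abi2 and Raph1 precede Cd28, and Pard3b follows Icos. The same table lists no protein-coding gene other than Ctla4 between Cd28 and Icos. No annotation of NCBIM37 was used, so elements are given by position and number, and none is assigned to a promoter, exon or intron of these genes.

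ATAC-seq marks open chromatin through the Tn5 transposase, which inserts sequencing adapters into accessible DNA. CD4+ T cells were enriched from the spleens of Foxp3-IRES-EGFP reporter mice, in which GFP marks cells that make Foxp3, the transcription factor of the Treg lineage. Cells were sorted as GFP-positive Treg or GFP-negative Tconv, 100000 per library, from wild-type animals (WT) or from animals lacking the Lrrc32 +70k enhancer (KO). Lrrc32 is the gene of GARP, a Treg surface protein that tethers latent TGF-beta, and it lies on a different chromosome from this window. Each of the 4 groups had 3 libraries, and all groups carried the reporter. The labels give no age or sex, and they do not say that each library came from a separate animal. The p-values therefore rest on library-to-library spread, part of which may be technical. In pools of sorted cells, a site open in fewer cells and a site less open in every cell cannot be told apart. Cell type markers were not checked here, since that needs gene positions on NCBIM37.

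Each list of the authors' peaks held 21269 to 27605 peaks, except KO Treg replicate 2 with 5262, and read depth is unknown. KO Treg replicate 2 had 1 peak in the window, so results that rest on it are also given without it. The fold over background and the −log10 p of a peak are the authors' own values for that peak. They are used here only to describe and rank peaks within a list, as a percentile from 0 (weakest peak of the list) to 100 (strongest). The lowest −log10 p in each list was between 5.01 and 5.06, so a site slightly under it is missing from a list.

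The window was crowded with elements. When the genome was cut into 7557 tiles of the same length on a fixed grid, the 4495 tiles with at least 1 region held a median of 6 regions, against 42 in the window. A single tile, 0.0132% of all, held at least as many, with 43. The window was set around its genes and the tiles were not set around anything, so this is a description and was not tested. The median width of the 42 elements was 717 bp, from 267 to 2492 bp, against 750 bp for all regions.

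**Figure D1:**
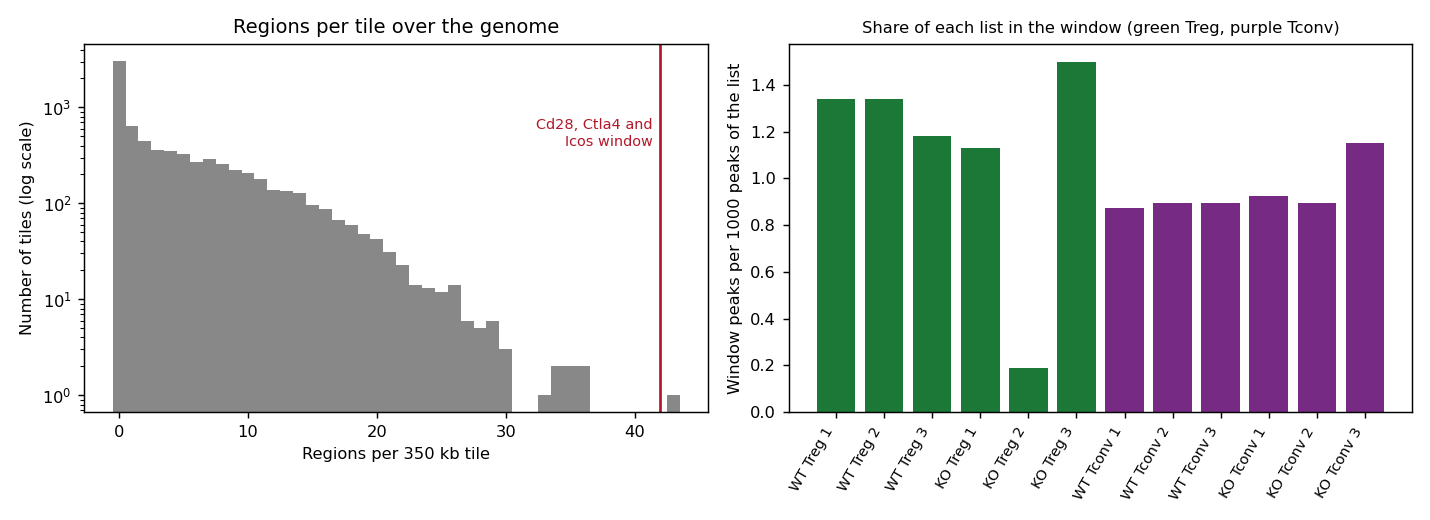
Left, number of merged regions in each 350 kb tile of the genome (x axis) against the number of tiles (y axis, log scale), with the window's 42 regions as a red line near the right end. Right, peaks in the window per 1000 peaks of each list for the 12 libraries, Treg in green and Tconv in purple, where KO Treg replicate 2 stands far below the rest at 0.19.

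Most Treg lists put more peaks into the window than Tconv lists did. WT Treg libraries had 34, 37 and 27 peaks there, and KO Treg libraries had 28, 1 and 38. The WT Tconv lists had 21, 22 and 19 peaks in the window, and the KO Tconv lists 23, 22 and 29. Per 1000 peaks of the list, the 5 Treg libraries other than KO Treg replicate 2 had 1.13 to 1.5 and the Tconv libraries 0.874 to 1.15, so the ranges touched at KO Treg replicate 1 and KO Tconv replicate 3. Peaks covered 17203 ± 3270 bp of the window in those 5 Treg libraries (SD, n = 5) and 11841 ± 2025 bp in Tconv (SD, n = 6), again with overlapping ranges. With each of the 11 longer lists cut to its 21269 strongest peaks, the window held 21 to 25 peaks in Treg and 16 to 21 in Tconv, so that part of the gap went with the weakest peaks. The median percentile of a window peak on these equal lists was 31.8 to 43.4 in Treg and 34.8 to 50.5 in Tconv, and the ranges overlapped.

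**Figure D2:**
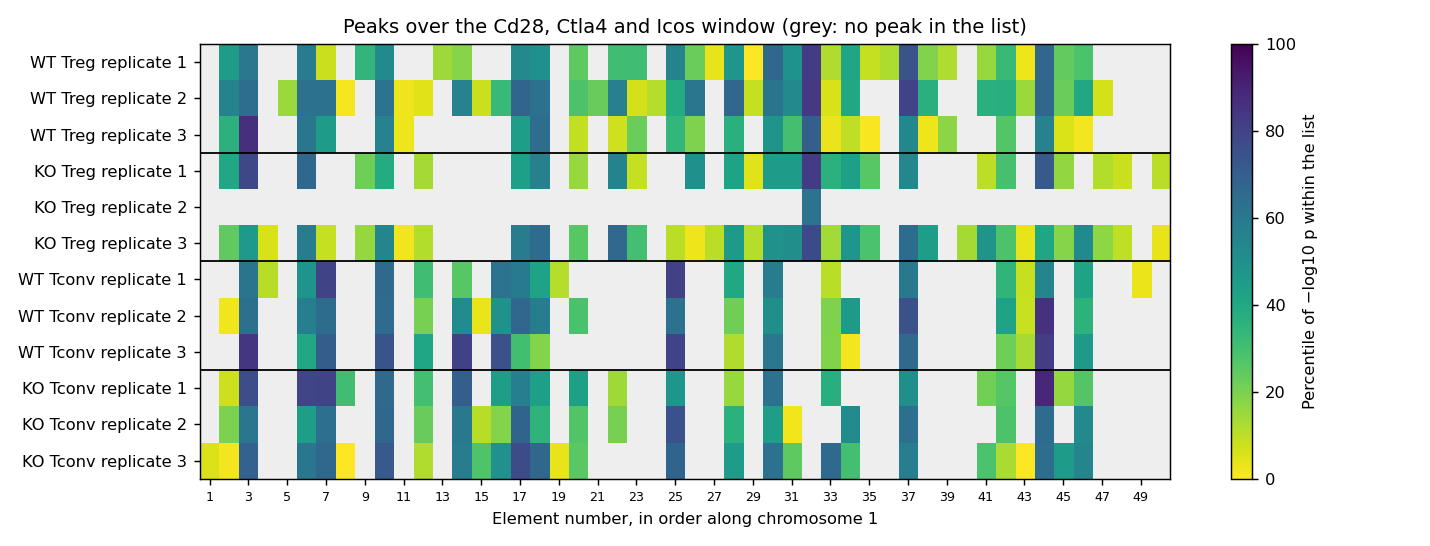
Within-list percentile of −log10 p for each of the 50 elements (x axis, in order along chromosome 1) in each of the 12 libraries (y axis), with grey where the list has no peak. Columns filled in nearly every row are the shared elements, 19 of the 50 columns are filled in Treg rows alone, and the row of KO Treg replicate 2 is empty except at element 32.

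The framework of the window was a set of 10 elements, numbers 3, 6, 10, 17, 18, 28, 30, 37, 42 and 44, with a peak in all 11 libraries other than KO Treg replicate 2. They made up 23.8% of the 42 elements, against 44.9% of regions over the genome, so fewer of the window's elements had a peak in every one of these libraries than was usual. None of the 10 had a peak in KO Treg replicate 2, which had one at 30.3% of such shared regions genome-wide. Together with element 32, 4 of these ranked highest in the window by mean percentile, namely 3, 44, 37 and 10.

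Element 3, chr1:60802602-60803838, is 1237 bp wide and lies towards the Cd28 end. Its percentiles were 60.3, 63.8 and 86.6 in WT Treg, 78.3 and 45.8 in KO Treg replicates 1 and 3, 61.6, 63.2 and 84.3 in WT Tconv and 76.0, 60.7 and 68.4 in KO Tconv. The Tconv values, 60.7 to 84.3, lay within the wider Treg range of 45.8 to 86.6. The means were close, at 67.0 ± 15.9 in Treg (SD, n = 5) and 69.0 ± 9.39 in Tconv (SD, n = 6).

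Element 37, chr1:60997644-60998834, likewise had overlapping values in the cell types. It stood at 74.6, 79.8 and 53.2 in WT Treg, 53.6 and 64.6 in KO Treg replicates 1 and 3, 59.6, 75.3 and 65.8 in WT Tconv and 50.3, 63.2 and 57.1 in KO Tconv. The means, 65.2 ± 12.1 in Treg (SD, n = 5) and 61.9 ± 8.47 in Tconv (SD, n = 6), lay well within the spread. On equal lists, described with the rank test, element 37 was 2.74 points higher in Treg (exact permutation p = 0.697, adjusted p = 0.851) by −log10 p, but ranked by fold the difference turned to -22.3 points (exact permutation p = 0.0238, adjusted p = 0.266).

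Element 44, chr1:61034384-61036875, was the widest of the window, at 2492 bp. WT Treg libraries had it at percentiles of 66.9, 67.1 and 55.6, and KO Treg replicates 1 and 3 at 72.0 and 40.7. WT Tconv libraries had it at 54.4, 85.9 and 81.7, and KO Tconv libraries at 89.0, 64.8 and 63.8. The highest values were from Tconv, but the groups overlapped, with means of 60.4 ± 12.6 in Treg (SD, n = 5) and 73.3 ± 14.1 in Tconv (SD, n = 6).

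Element 10, chr1:60832923-60834855, ranked lower in Treg than in Tconv in every library. Its percentiles were 52.4, 61.9 and 55.5 in WT Treg and 38.4 and 54.0 in KO Treg replicates 1 and 3. In Tconv they were 65.6, 64.9 and 73.9 in WT and 65.6, 66.5 and 72.2 in KO. The cell types did not overlap, with means of 52.5 ± 8.63 (SD, n = 5) and 68.1 ± 3.90 (SD, n = 6). The fold over background was much closer, at 3.98 to 4.84 in Treg and 4.15 to 5.25 in Tconv.

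Ranks can be compared between lists only at equal length, so every list but that of KO Treg replicate 2 was cut to its 21269 strongest peaks. The mean percentile of 5 Treg lists was then set against that of 6 Tconv lists at the 13087 regions with a peak in all 11, by an exact two-sided permutation test over all 462 labelings with Benjamini-Hochberg (BH) adjustment. No region of the genome passed an adjusted p of 0.05 (0% ranking higher in Treg and 0% in Tconv), and neither did any of the 9 window elements that could be tested. The smallest p this exact permutation test gave, 0.00216, had an adjusted p of 0.0599, so no region could be called however clear its difference. The 0% therefore does not show that ranks were alike in the cell types. Without adjustment, 2939 regions (22.5%) and 2 window elements, 10 and 28, had a p under 0.05. Of the 9 elements, 4 (6, 18, 28 and 37) had the higher mean in Treg, against 53.9% of all regions tested. Ranked by fold, the sign turned at 4 of the 9, with 18, 28 and 37 lower and 3 higher in Treg. The median size of the difference, either way, was 10.1 percentile points for the 9 elements and 5.38 for all regions.

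Element 10 had the largest difference of the 9 elements. On equal lists it stood at 43.2, 50.6, 52.1, 28.5 and 45.1 in Treg and at 61.2, 59.5, 73.9, 59.8, 61.2 and 67.0 in Tconv. Treg was lower by 19.9 points, shown by 5 of 5 Treg against 6 of 6 Tconv libraries (exact permutation p = 0.00216, the smallest this test can give, adjusted p = 0.0599). The adjusted p ranged from 0.0507 to 0.108 under the alternatives that ranked by −log10 p, and was 0.268 in pairs by replicate number. When peaks were ranked by fold instead, the difference fell to -6.87 points (exact permutation p = 0.177, adjusted p = 0.552).

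Element 28, chr1:60955191-60956457, leaned the other way. Its mean was 19.3 points higher in Treg (exact permutation p = 0.0368, adjusted p = 0.191). Ranked by fold it was lower in Treg by a difference of -11.9 points (adjusted p = 0.57), so its direction depends on which of the authors' values is ranked.

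**Figure D3:**
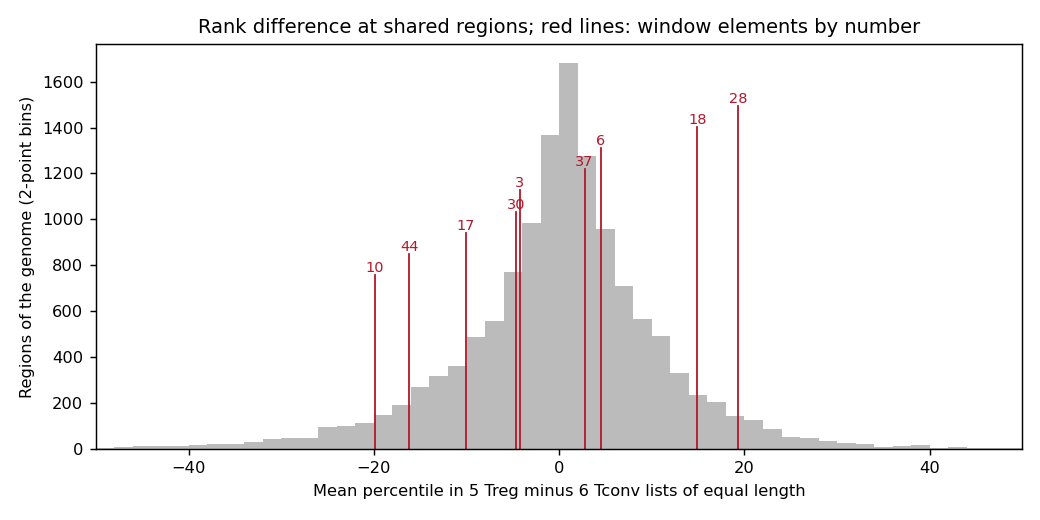
Number of genome regions (y axis) by mean percentile in 5 Treg lists minus that in 6 Tconv lists of equal length (x axis, percentile points in 2-point bins, drawn from -50 to 50). Red lines mark the 9 window elements by number, their heights serving only to place the labels; element 10 lies farthest to the left at -19.9 and element 28 farthest to the right at 19.3.

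The fold told the cell types apart at the neighbouring elements 30 and 33, which were picked after their values were seen. Element 30, chr1:60965462-60966121, had similar percentiles of −log10 p in both cell types, 44.6 to 66.2 in Treg and 44.4 to 62.7 in Tconv. Its fold over background was 3.88, 3.34 and 3.58 in WT Treg and 3 and 3.02 in KO Treg replicates 1 and 3, against 6.06, 5.66 and 6.06 in WT Tconv and 5.65, 4.50 and 5.75 in KO Tconv. Treg folds at element 30 were among the lowest of their lists, at percentiles of 0.814 to 4.75, while Tconv folds stood at 24.6 to 55.8.

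On equal lists ranked by fold, element 30 was lower in Treg by a difference of -39.5 points (exact permutation p = 0.00433, adjusted p = 0.158). Element 33, chr1:60973127-60973760, showed the same gap in fold percentile, at 0.174 to 0.907 in 5 Treg libraries and 9.35 to 69.7 in 5 Tconv libraries. At element 31, Treg folds also stood at the floor of their lists, at percentiles of 0.437 to 1.14, although its Treg peaks spanned 1056 to 1164 bp. What sets the fold apart between cell types there was not tested.

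Elements with a peak in Treg and none in Tconv were the more common kind of difference. A total of 13 elements (31%) had a peak in 2 or more Treg libraries and no Tconv library, against 11.5% of all regions. The reverse held for 1 element (2.38%), number 19, against 9.22% of regions. With both KO libraries numbered 2 left out, leaving 5 libraries of each type, the counts stayed at 13 and 1, against 12.4% and 8.24% of regions. In the same 5 against 5, 20 elements (47.6%) had a peak in more Treg than Tconv libraries and 10 (23.8%) in more Tconv than Treg libraries, against 26.7% and 21.8% of regions. The Treg counts were thus above the genome's shares, the count of elements with Tconv peaks alone was below its share, and that of elements in more Tconv libraries was near it.

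**Figure D4:**
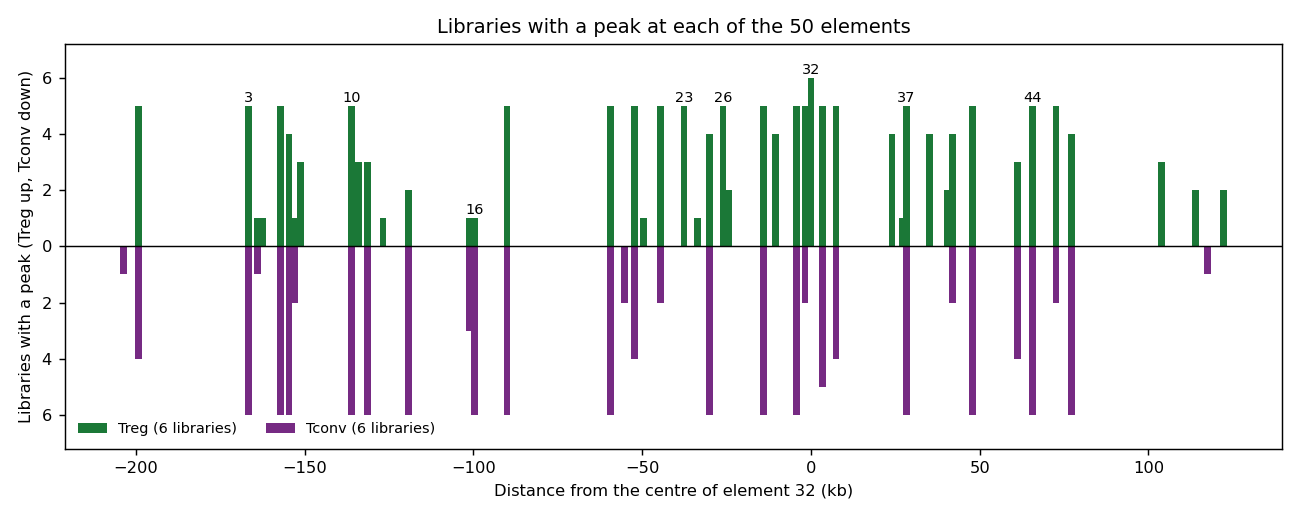
Number of Treg libraries (green, upwards) and Tconv libraries (purple, downwards) with a peak at each of the 50 elements, by distance from the centre of element 32 in kb. Element 32 is the one with 6 Treg and 0 Tconv libraries, elements 23 and 26 have 5 and 0, and element 16 has 1 and 6.

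A region was called enriched in a cell type when at least 5 more libraries of that type had a peak, out of 6 against 6. Treg-enriched elements numbered 3 of 42 (7.14%), namely 23, 26 and 32, against 3.2% of all regions. One element (2.38%), number 16, was Tconv-enriched, against 3.55%. Without KO Treg replicate 2, at a difference of 4 libraries or more, 6 elements (14.3%) were Treg-enriched, now with 29, 35 and 38, against 6.2%, and 2 (4.76%) were Tconv-enriched, now with 14, against 6.4%. In WT libraries alone, 7 elements (22, 23, 26, 31, 32, 38 and 45; 16.7%) were listed in each of the 3 Treg libraries and never in Tconv, against 5.73%, and none had the reverse, against 2.94%. In KO libraries without KO Treg replicate 2, 9 elements (21.4%) had a peak in both Treg and no Tconv library, against 6.9%, and 2 (14 and 16; 4.76%) had the reverse, against 4.75%. Elements 23, 26 and 32 were in both sets. In these counts on lists of full length, the Treg share was above the background and the Tconv share was near or below it. On equal lists without KO Treg replicate 2, at the same difference of 4 libraries, 5 elements (2, 22, 26, 31 and 32; 11.9%) were Treg-enriched, against 4.57%, and 4 (7, 12, 14 and 16; 9.52%) were Tconv-enriched, against 6.44%. Both shares were then above the background, element 23 was no longer called, and the lean towards Treg was much smaller.

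Element 32, chr1:60969354-60970598, was the strongest peak of the window in Treg and was in no Tconv list. Its percentiles were 82.1, 83.4 and 69.9 in WT Treg and 82.6, 61.8 and 77.4 in KO Treg, a mean of 76.2 ± 8.67 (SD, n = 6). It ranked first among the window's peaks in 5 of 6 Treg lists and second, after element 3, in WT Treg replicate 3. It was the only window peak of KO Treg replicate 2. The 6 against 0 libraries gave a Fisher's exact p of 0.00216, two-sided, with a BH adjusted p of 0.0214 over the 5679 regions present in 5 to 7 libraries and 0.123 over all 32787 regions. Over all regions no call passed 0.05, and 2213 regions had an unadjusted p under 0.05. Only regions present in 5 to 7 libraries can reach such a p. All 2213 also passed 0.05 when adjusted over the 5679 regions, so that adjustment set none of them aside and adds no support to a call.

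In contrast to its rank, the fold over background of element 32 was modest, at 4.42, 4.13 and 4.10 in WT Treg and 4.08, 4.94 and 3.60 in KO Treg. The −log10 p was 23, 25.6 and 16.1 in WT Treg and 23.4, 8.33 and 21.1 in KO Treg, lowest in the library with the short list. All 6 peaks shared a core of 244 bp, chr1:60970260-60970503.

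The next element, number 31 at chr1:60967572-60968892, lies 461 bp before element 32 and was in every Treg list but that of KO Treg replicate 2. Its percentiles were 48.6, 52.8 and 29.4 in WT Treg and 44.8 and 50.5 in KO Treg replicates 1 and 3. In Tconv it had no WT peak and stood at 2.07 and 24.8 in KO Tconv replicates 2 and 3, below every Treg value. By fold the order turned, at 3.26 and 4.06 in those Tconv libraries and 2.95 to 3.2 in Treg. Those Tconv peaks were also short, 155 and 218 bp.

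The other Treg-enriched elements, 23 and 26, were weaker and more variable. Element 23, chr1:60931777-60932947, had percentiles of 30.7, 6.26 and 22.3 in WT Treg and 8.62 and 30 in KO Treg replicates 1 and 3, a mean of 19.6 ± 11.6 (SD, n = 5). Element 26, chr1:60943604-60944249, had percentiles of 22.6, 60.7 and 19.5 in WT Treg and 49.8 and 2.40 in the same KO libraries, a mean of 31 ± 23.7 (SD, n = 5). Each lacked a peak in KO Treg replicate 2 and in all Tconv libraries (Fisher's exact p = 0.0152, adjusted p = 0.0389 over the 5679 regions and 0.224 over all). Their values reached down to near the calling limit, unlike those of element 32. The peaks of element 23 shared 227 bp and those of element 26 shared 143 bp.

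The remaining 10 elements with Treg peaks alone, 9, 11, 27, 29, 35, 38, 39, 47, 48 and 50, had a peak in 2 to 4 Treg libraries each. Their single values ran from 0.126 to 44.4, the highest of them at element 38. Most of the elements open in Treg alone are thus peaks of the lower part of the lists.

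A smaller set of elements leaned towards Tconv, most of it on the Cd28 side of the window. Element 16, chr1:60869898-60870720, was the Tconv-enriched one, with percentiles of 62.0, 48.9 and 75.2 in WT Tconv and 44.3, 18.4 and 49.3 in KO Tconv, a mean of 49.7 ± 19.0 (SD, n = 6). Among Treg libraries it had a peak in WT Treg replicate 2 alone, at 32.5 (Fisher's exact p = 0.0152, adjusted p = 0.0389 over the 5679 regions and 0.224 over all). The fold was 4.61 to 8.33 in Tconv and 5.43 in that Treg library. All 7 peaks shared 129 bp, chr1:60870346-60870474.

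Elements 7, 12, 14 and 25, chosen after their values were seen, had a peak in every Tconv library and in some Treg libraries. Element 7, chr1:60814894-60815686, stood at 8.07, 62.8 and 44.6 in WT Treg and 8.94 in KO Treg replicate 3, against 79.6, 64.5 and 70.7 in WT Tconv and 79.6, 63.5 and 66.4 in KO Tconv. The Treg values of element 7 spread widely, and all lay below the lowest Tconv value. Element 25, chr1:60939493-60940430, stood at 55.1, 38.3 and 33.9 in WT Treg and 10.5 in KO Treg replicate 3, against 80.2, 62.2 and 79.8 in WT Tconv and 47.4, 74.9 and 67.7 in KO Tconv. It was the strongest window peak in 2 Tconv lists, and its ranges overlapped only at KO Tconv replicate 1 and WT Treg replicate 1.

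Element 14, chr1:60850515-60851035, was at 18.0 and 55.7 in WT Treg replicates 1 and 2, in no KO Treg library, and at 25.9, 51.6 and 80.1 in WT Tconv and 69.8, 59.8 and 58.2 in KO Tconv. Element 12, chr1:60838381-60838927, was weak in both types, at 4.61 to 13.3 in 3 Treg libraries and 12 to 41.2 in Tconv. When absent peaks were set to a percentile of 0 and regions in at least 9 libraries were tested, element 25 was lower in Treg by a difference of -45.1 points (exact permutation p = 0.00649, adjusted p = 0.0756). It did not pass the adjustment.

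**Figure D5:**
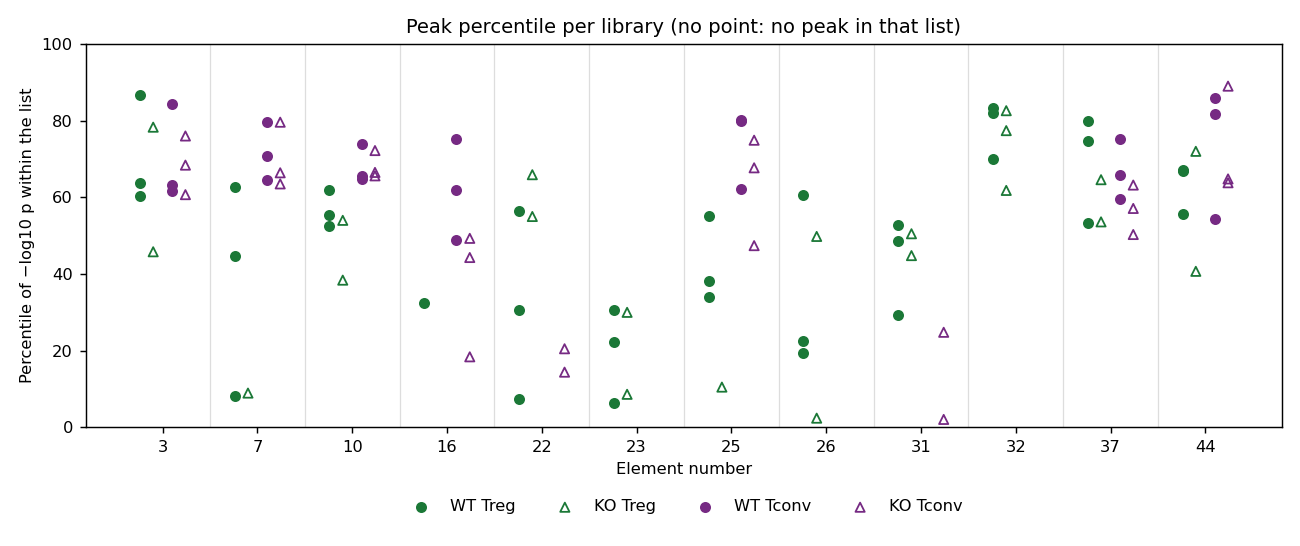
Within-list percentile of −log10 p (y axis) at 12 elements (x axis) for every library with a peak, Treg in green, Tconv in purple, circles for WT and triangles for KO. Element 32 has 6 green points from 61.8 to 83.4 and no purple one, elements 7, 10 and 25 have purple points mostly above the green, and elements 3 and 37 have both intermixed.

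By the rule of 3 libraries against 0, no element of the window was called lost or gained in KO. No element was lost in KO Treg (0.973% of regions) or gained there (0.0305%), and none was lost in KO Tconv (0.189%) or gained there (0.793%). The count gained in KO Treg could only be 0. KO Treg replicate 2 had its single window peak at element 32, which was also in every WT Treg list. These counts have no test, since an exact permutation test of 3 libraries against 3 cannot go below p = 0.1. Over both cell types together, 6 WT against 6 KO libraries, no window element had an unadjusted Fisher's exact p under 0.05, with a smallest p of 0.242. Genome-wide, 22 regions had such a p and the smallest BH adjusted p was 1. A change confined to Treg or to Tconv differs by at most 3 libraries in this pooled test, which cannot bring its p under 0.05.

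In Treg, by the looser rule of at least 2 of 3 libraries against 0 of 3, 2 elements were lost in KO (14 and 39; 4.76%), against 4.21% of regions, and 2 were gained (48 and 50; 4.76%), against 1.16%. The first share is at the background. The counts also turned on the short list of KO Treg replicate 2. Without it, elements 48 and 50 had a peak in both other KO Treg libraries and in no WT Treg library, 4.76% against 1.08% of regions, and none was lost, against 0.976%. Element 48, chr1:61083492-61084162, had percentiles of 7.83 and 9.66, and element 50, chr1:61092146-61092438, had 10.5 and 3.41. All of these are weak peaks near the limit of the lists. The strong Treg element, 32, had a peak in all WT and all KO Treg libraries, and its KO percentiles overlapped the WT ones.

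In Tconv, 5 elements (8, 22, 31, 41 and 45; 11.9%) had a peak in 2 KO libraries and no WT library, against 3.49% of regions by that looser rule. None was lost in this way, against 1.28%. Of the 5, elements 22, 31, 41 and 45 had a peak in at least 4 Treg libraries. How often this holds among all regions gained by the looser rule was not counted, so nothing is drawn from it. KO Tconv lists were longer than WT Tconv lists, and with equal numbers of top peaks per list the count fell to 2 (41 and 45; 4.76%), against 2.04% of regions. Element 41, chr1:61011524-61012133, stood at 21.3 and 28.2 in KO Tconv replicates 1 and 3, and element 45, chr1:61041950-61043266, at 16 and 44.9 in the same libraries. Element 22, chr1:60925059-60925738, stood at 14.4 and 20.5 in KO Tconv replicates 1 and 2, against 7.37 to 65.9 in 5 Treg libraries. Each of these KO Tconv gains rests on 2 libraries, and the part of list length in them was not tested other than by the equal lists.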

How the data were processed

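ATAC-seq was measured in 12 libraries, 3 in each of 4 groups (WT Treg, KO Treg, WT Tconv, KO Tconv), grouped and numbered by the sample titles. Per the submitters' processing notes, which give no role or order, the tools were MACS2, Bowtie2, Trim Galore 0.4.4, DESeq2 and DiffBind, with the build NCBIM37; other versions, read filters, control input and cut-site shifts were not given in the sources used here, and no count test was run, because peak lists hold no counts.

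The deposited lists, 1 per library, give for each peak, from the authors' peak caller, a score, a fold ratio and both −log10 p and −log10 q. The −log10 p grows with depth, which is unknown, so its levels were not tested between lists. Where folds, −log10 p or percentiles of full lists are set side by side, this is description. Ranks were tested on equal lists alone. Numbers inside the peak names differ from those the lists were deposited under, and each list was assigned as its deposit records.

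Peaks of all lists (275880) were merged where they overlapped or touched, in 1-based coordinates, and an overlap of 1 bp counted as presence. Presence was compared with Fisher's exact test, two-sided, and ranks with an exact permutation test, each with BH adjustment over the genome. Elements given in full are those called and the 5 with the highest mean percentile. Any others are given by count or were chosen after their values were seen. Beside those said so in the text, elements 6, 22, 28, 31, 41, 45, 48 and 50 were also chosen in that way. Elements 18 and 19 are given by number alone. The window, its elements and the lists were chosen with earlier results of these data known. Calls and ranks were tested on simulated data. Alternatives were stricter peaks, equal list lengths, 50% coverage, joined gaps of up to 200 bp, other thresholds, fold in place of −log10 p, pairing by number, leaving out each library and, added after seeing the data, 5 libraries against 5. No NCBIM37 genome was used, so no sequence is printed. The tools were scipy 1.17.1, pandas 2.3.3, numpy 2.4.6 and matplotlib 3.10.9 under Python 3.11.15.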

Additional observations from a re-analysis of the deposited data

Results flagged for a closer look

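KO Treg replicate 2 had 1 peak in the window, against 27 to 38 in the other Treg libraries. Its gap to the nearest library was 0.703 of the whole range of the 6 values, past the limit for a sample far from the others. Such a gap was looked for in 14 groups of values, and chance passes the limit in about 1 in 20. The list of this library is short over the whole genome (5262 peaks), and its single window peak was at element 32.

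At element 6, chr1:60812441-60813044, the difference between Treg and Tconv percentiles on lists of equal length had opposite signs in the genotypes. It was 8.04, 0.865 and 17.6 points in the WT libraries of replicates 1, 2 and 3, and -14.4 and -3.80 points in KO replicates 1 and 3. The mean WT difference exceeded the mean KO difference by 17.9 points. This difference was not tested, 9 elements were looked at, and whether same-numbered libraries belong together is not settled.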

How the results depend on the processing

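Across 9 counts and 166 alternatives, 122 counts stayed within 1.5 times the main value and 44 did not. Many of the 122 were counts of 0 that stayed at 0, among them every alternative of the rank test. They say nothing on how stable the enriched counts are, and both the Treg-enriched and the Tconv-enriched count moved in most of their alternatives. With stricter peaks (−log10 q of at least 5), 2 elements were Tconv-enriched and 1 was lost in KO Treg. With every list cut to the length of the shortest, 5 elements remained in the window and 0 were Treg-enriched or Tconv-enriched, since few peaks are then left. With equal lists and no KO Treg replicate 2, 5 were Treg-enriched and 4 Tconv-enriched, and 1 was lost and 1 gained in KO Treg. When peaks had to cover 50% of an element, 1 was lost in KO Treg and 1 gained in KO Tconv. A difference of 4 libraries gave 6 Treg-enriched and 2 Tconv-enriched elements, and one of 6 libraries gave 1 and 0. WT libraries alone gave 7 and 0, and KO libraries alone 1 and 2. KO libraries alone could give no Treg-enriched element but 32, where KO Treg replicate 2 had its only window peak. Without KO Treg replicate 2, the KO libraries gave 9 and 2. By 2 of 3 against 0 of 3, 2 elements were lost in KO Treg (4.76%, against 4.21% of regions) and 2 gained (4.76%, against 1.16%). In KO Tconv 5 were gained (11.9%, against 3.49%). Other than by list length, the cause was not tested. When single libraries were left out, Treg-enriched elements numbered 3 to 8 and Tconv-enriched ones 1 to 3, with the needed difference lowered by 1. It gave 0 to 4 elements lost (4 without KO Treg replicate 3) and 0 to 2 gained in KO Treg (2 without KO Treg replicate 2), and 0 to 1 lost (without KO Tconv replicate 3) and 0 to 3 gained in KO Tconv (3 without KO Tconv replicate 2). For the 8 elements given in full, the difference was taken between the numbers of Treg and Tconv libraries with a peak. It kept its value in 43 of 128 alternatives and changed in 85, many of which have fewer libraries. No enriched element changed sign, but these alternatives only take away peaks or libraries. Elements 23, 26 and 32 had no Tconv peak to begin with, so their difference could not turn negative. With every list cut to the length of the shortest, the difference at elements 16, 23 and 26 was 0. Same-numbered Treg and Tconv libraries had correlations of deviations of 0.0954, 0.00906, 0.0835, 0.108 and 0.0532. Not all were over 0.1, so the numbers were not taken to pair them. Of the 5 Treg libraries, 4 correlated best with their own number. KO Treg replicates 1 and 3 had correlations of equal size and opposite sign, so they are not separate cases in that count. A replicate block in 5 of 6 pairs gave the same 3 Treg-enriched and 1 Tconv-enriched elements as counts, and in the rank test 0 and 0, where the exact permutation test over 5 pairs cannot go below p = 0.0625.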
